A study of Mus musculus with 24 samples.

Results

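The respiratory chain subunits of mouse liver were examined as 1 set of genes whose products come from both genomes of the cell. Members were the genes of the vehicle and PCN table whose symbol named a subunit or name-sharing assembly factor of complexes I to V (Nduf, Sdh, Uqcr, Cox4 to Cox8, Atp5 and the mt- genes) and whose mean normalised read count over the 8 libraries of that table was at least 50. This gave 77 members of the 19650 genes listed, 68 of them nuclear and 9 mitochondrially encoded. The nuclear members were 38 of complex I, 3 of complex II, 5 of complex III, 9 of complex IV and 13 of complex V, sorted by gene name, with 62 subunits, 5 assembly factors of complex I (Ndufaf1, Ndufaf3, Ndufaf4, Ndufaf6 and Ndufaf8) and 1 supercomplex factor (Cox7a2l). The mitochondrially encoded members were mt-Nd1, mt-Nd2, mt-Nd4, mt-Nd5 and mt-Nd6 of complex I, mt-Cytb of complex III, and mt-Co1, mt-Co2 and mt-Co3 of complex IV.

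The mean level and the listing in the table were the values that chose the members, and both came from the vehicle and PCN libraries. The table holds only genes with an adjusted p under 0.99, so 2142 genes that its statistics imply were not analysed here, and 21 of 106 protein-coding genes with a matching symbol, among them Atp5b, Uqcrc1 and mt-Nd3, were not analysed either. Counts and medians over the members with PCN are therefore a description. A further 19 matching symbols were listed below the limit: 3 mitochondrial genes (mt-Atp6, mt-Nd4l and mt-Atp8), the striated muscle isoforms Cox6a2, Cox7a1 and Cox8b at mean counts of 0.64, 5.51 and 0.49, and others that included 8 annotated pseudogenes. Next to the limit stood mt-Co2 inside it at 60.63 and Cox5b-ps outside it at 42.18. Cox5b-ps had normalised counts of 49.24, 48.98, 46.04 and 48.56 in vehicle and 37.92, 34.03, 42.49 and 30.15 with PCN, lower without overlap.

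Liver total RNA was sequenced from 24 male mice in 6 groups of 4. Wild-type C57BL/6N mice aged 19 to 20 weeks received distilled water as vehicle, 10 mg/kg pravastatin, 10 mg/kg atorvastatin or 100 mg/kg PCN (pregnenolone 16α-carbonitrile, a steroid that activates the mouse pregnane X receptor, PXR). PXR knockout mice of 20 weeks received distilled water or 10 mg/kg atorvastatin. All mice were dosed by oral gavage for 4 days and fasted for 12 h overnight, and the wild-type mice were kept on standard chow. The knockout mice formed an experiment of their own, so genotype and experiment cannot be told apart.

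The respiratory chain passes electrons from NADH (complex I) and succinate (complex II) through coenzyme Q, complex III, cytochrome c and complex IV to oxygen, and complex V uses the resulting proton gradient to make ATP. Most subunits are encoded in the nucleus and imported, whereas 13 core subunits are encoded by mitochondrial DNA, which is transcribed as long polycistronic RNAs by a dedicated polymerase. Hepatocytes are rich in mitochondria, and fasting liver relies on fatty acid oxidation to feed this chain. PXR is a nuclear receptor that controls genes of drug metabolism. Statins inhibit cholesterol synthesis upstream of the isoprene units from which the tail of coenzyme Q is built.

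The libraries of the vehicle and PCN table held 6.64 to 24.6 M counts. Summed normalised counts of 6 hepatocyte markers were 827936 to 945846 in vehicle and 764989 to 846199 with PCN, and those of 5 listed muscle and brown fat markers were 3.683 to 22.98 and 3.035 to 11.31. The PXR gene Nr1i2 stood at 1127 to 1459 in wild-type vehicle libraries and at 570.9 to 696.2 in knockout vehicle libraries, so reads of the gene remained in the knockout. Nothing in the labels ties a library column to a particular animal, and library numbers below are column order.

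Not all mitochondrial genes could be measured equally. Per kilobase of transcript, and averaged over the 8 libraries, mt-Co1 had 101773 normalised counts, mt-Cytb 29461 and mt-Nd1 11398, while mt-Nd2, mt-Nd4, mt-Nd5 and mt-Nd6 lay between 5593 and 8064. The neighbouring genes mt-Co2, mt-Atp6 and mt-Co3 had only 88.6, 35.2 and 182, mt-Nd4l had 10 and mt-Atp8 had 1.81, and all of them are on the strand of mt-Co1. The group with low counts forms 1 run in gene order from mt-Co2 to mt-Nd4l.

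Each mitochondrial transcript was compared with all annotated nuclear transcripts of GENCODE M21 (GRCm38). For mt-Co2, mt-Atp6, mt-Co3, mt-Nd3 and mt-Nd4l the best nuclear match had at least 99% identity over at least 90% of the length. These copies (Gm28661, Gm10925, Gm28437, Gm28438 and Gm10222) lie in the same order within 4031 bases of chromosome 1 (chr1:24611535-24615565), together with Gm28439, which matches 876 bases of mt-Nd4 without a mismatch. No annotated copy of mt-Atp8 past those limits was found, but the copies of mt-Co2 and mt-Atp6 are 233 bases apart on chromosome 1, beside 230 bases between the genes themselves. The other mitochondrial genes had more divergent best matches, for example 97.6% for mt-Co1, 93.6% for mt-Nd6 and 76.6% over 53.2% of the length for mt-Nd1. The first 60 aligned bases of a gene of each kind are shown because they are what a read has to tell the genomes apart, with capitals marking the bases that differ.
mt-Co3: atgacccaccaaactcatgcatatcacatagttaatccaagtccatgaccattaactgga
Gm28437: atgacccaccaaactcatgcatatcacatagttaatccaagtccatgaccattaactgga
mt-Nd6: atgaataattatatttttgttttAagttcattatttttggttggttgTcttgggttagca
Gm11408: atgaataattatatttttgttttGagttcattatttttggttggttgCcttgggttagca
The mt-Co3 stretch is identical in its copy. In mt-Nd6 the copy differs by A24G and T48C, counted from 1 at the 5′ end of the gene's transcript, with the gene's base first. A read that lies wholly inside a mt-Co3 or mt-Co2 match cannot be assigned to one genome by its sequence, and the treatment of such reads by the authors' counting is not given in the sources used here. Counts of the copies were themselves low, with normalised means of 110.2 for Gm28437 beside 143 for mt-Co3 and of 27.98 for Gm28661 beside 60.63 for mt-Co2. The part of the copies in the low counts was not tested, and the values of mt-Co2 and mt-Co3 below are uncertain for this reason. The same limit holds for reads inside the mt-Nd4 match, which covers 63.6% of its length. Normalised means were 8781 for mt-Nd4 and 10.32 for Gm28439.

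**Figure D1:**
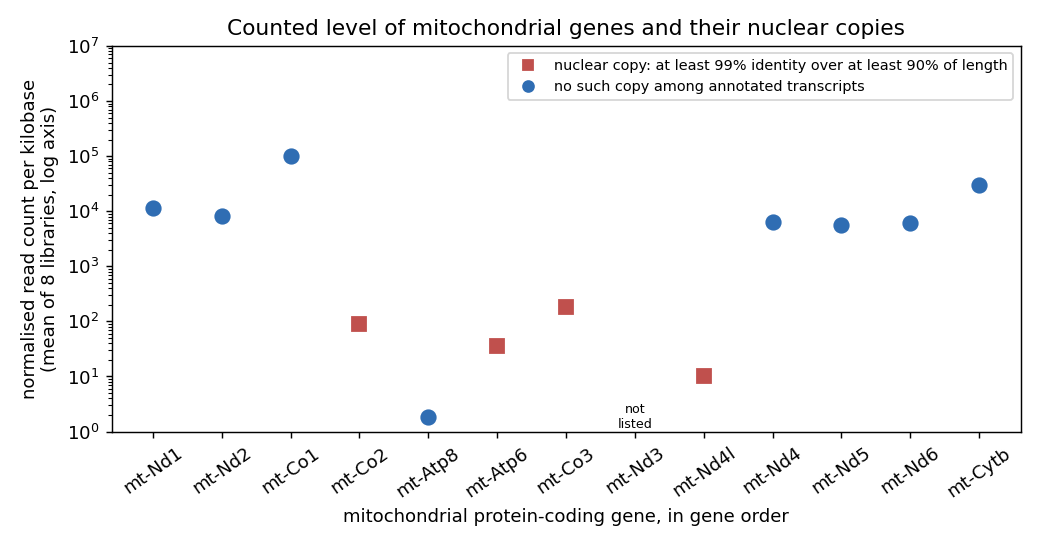
Normalised read count per kilobase (log axis, mean of the 8 vehicle and PCN libraries) of the 13 mitochondrial protein-coding genes in gene order, with squares for genes that have a nuclear copy of at least 99% identity over at least 90% of their length. The genes from mt-Co2 to mt-Nd4l sit at 182 or below, and the others at 5593 or above; mt-Nd3 was not analysed.

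The comparison of PCN with vehicle in wild-type mice asked whether PCN was accompanied by altered RNA of the respiratory chain. Knockout mice received no PCN, so the part of PXR cannot be told apart from other effects of PCN. No member passed an adjusted p of 0.05 in edgeR's quasi-likelihood test (Benjamini-Hochberg over 12938 genes), where 3.55% of all genes tested were called, 1.91% higher and 1.64% lower. At an unadjusted p under 0.05 there were 4 mitochondrially encoded members, all higher with PCN (mt-Co3, mt-Nd6, mt-Nd5 and mt-Nd1). There were also 2 nuclear members, both higher (Cox6c and Ndufaf4). Of all 12938 genes 17.8% were under that limit in either direction, 1216 of them higher and 1090 lower. DESeq2 called 1 of the 77, mt-Nd6 at an adjusted p of 0.0488, beside 5.5% of all genes. The authors' deposited table at 0.05 lists mt-Nd6 and mt-Co3 at adjusted p of 0.0462 and 0.0482, beside 5.57% of all genes. Their table at 0.1, which calls 7.17% of all genes, adds mt-Nd5 at 0.0595 and puts mt-Nd6 and mt-Co3 at 0.0493 and 0.0513. In the authors' vehicle and PCN table that supplied the members, the adjusted p was 0.0727 for mt-Nd6, 0.0816 for mt-Nd5 and 0.0892 for mt-Co3. None of these passed 0.05 there, so the authors' calls of members depended on the table. A change in the copies of a transcript per cell and a change in the share of cells that carry it cannot be told apart in these bulk samples.

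All 9 mitochondrially encoded members had a fitted log2 change above 0, from 0.17 to 0.47. Their median was 0.31, against -0.01 over all genes tested. Values above 0 were not particular to subunits: by the authors' deposited values the mitochondrial rRNA genes mt-Rnr1 and mt-Rnr2 had log2 changes of 0.25 and 0.21. Their deposited adjusted p values were 0.343 and 0.808, and the groups overlapped for both, so neither was called. Mitochondrial tRNA genes went both ways, for example 0.55 for mt-Tw (authors' deposited adjusted p = 0.042) and -0.75 for mt-Tq (0.12). Among the subunits of the membrane arm of complex I, mt-Nd1 had normalised counts of 9384, 8995, 10542 and 10516 in the vehicle libraries and 13688, 12676, 10614 and 10849 in the PCN libraries. The groups of mt-Nd1 did not overlap, where 5.63% of all genes tested were higher without overlap. Its log2 change was 0.28 ± 0.10 (SE, n = 4 per group, edgeR adjusted p = 0.168). mt-Nd2 had 7268, 6107, 8625 and 6668 in vehicle and 12901, 11729, 6938 and 6725 with PCN. Its groups overlapped, since PCN libraries 3 and 4 lay inside the vehicle range and libraries 1 and 2 far above it, and its log2 change of 0.42 ± 0.20 had an adjusted p of 0.306.

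mt-Nd4 showed the same split, with 8275, 6734, 8261 and 8162 in vehicle and 11550, 11938, 7322 and 8004 with PCN. Again PCN libraries 1 and 2 were above every vehicle library and libraries 3 and 4 were not, and the log2 change was 0.31 ± 0.15 (adjusted p = 0.321). mt-Nd5 counts were 8896, 7352, 9047 and 9758 in vehicle and 13302, 13785, 9733 and 9739 with PCN. The groups touched at the top of the vehicle range, and the log2 change was 0.41 ± 0.13 (adjusted p = 0.125).

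mt-Nd6 is the only one of these mRNAs encoded on the opposite strand to the rest, so that without a stated strand setting its reads cannot be told apart from antisense RNA of the long transcript. It had 2823, 2926, 3057 and 2591 normalised counts in vehicle and 3323, 3780, 4043 and 3052 with PCN. Here PCN library 3 was the highest and library 4 fell just inside the vehicle range, and the log2 change was 0.32 ± 0.10 (adjusted p = 0.103 in edgeR). The end of mt-Nd5 and that of mt-Nd6 share 14 bases on opposite strands.

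mt-Cytb, the catalytic core of complex III that holds its haem b groups, had 32296, 28817, 28528 and 37454 in vehicle and 34397, 35861, 35911 and 36383 with PCN. The 4 PCN libraries lay within the vehicle range (log2 change 0.17 ± 0.10, adjusted p = 0.405). mt-Co1, the catalytic subunit of cytochrome c oxidase, had 150458, 140873, 145994 and 155120 in vehicle and 151098, 163834, 191568 and 159026 with PCN. The groups overlapped, and library 3 rather than library 1 or 2 was the highest (0.17 ± 0.11, adjusted p = 0.425).

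Both remaining subunits of complex IV, which have near-identical nuclear copies, did not overlap between groups at their low counts. Of all genes tested, 5.63% were higher without overlap. mt-Co2, which carries the copper site that accepts electrons from cytochrome c, had 59.09, 51.46, 57.09 and 55.28 in vehicle and 65.95, 65.34, 63.74 and 67.09 with PCN (log2 change 0.25 ± 0.15, adjusted p = 0.411). mt-Co3, the third core subunit, had 111.6, 118.3, 110.5 and 136 in vehicle and 140.1, 175.6, 192.7 and 159.1 with PCN. Its log2 change of 0.47 ± 0.13 was the largest of the 77 and its adjusted p of 0.0738 the lowest in edgeR. Without PCN library 1, the lowest of its group, the adjusted p of mt-Co3 was 0.0467. The nuclear copy Gm28437 was counted at 101.5 ± 6.21 in vehicle and 118.9 ± 10.2 with PCN (SD, n = 4), also without overlap.

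Single libraries carried much of several of these values. Leaving out PCN library 1 lowered the log2 change of mt-Nd2 from 0.42 to 0.25, leaving out PCN library 2 lowered that of mt-Nd4 from 0.31 to 0.19, and leaving out PCN library 3 lowered that of mt-Co1 from 0.17 to 0.10. Without vehicle library 4 the value of mt-Cytb went from 0.17 to 0.26. The other 5 mitochondrially encoded members moved by less than 1.5 times without any 1 library.

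**Figure D2:**
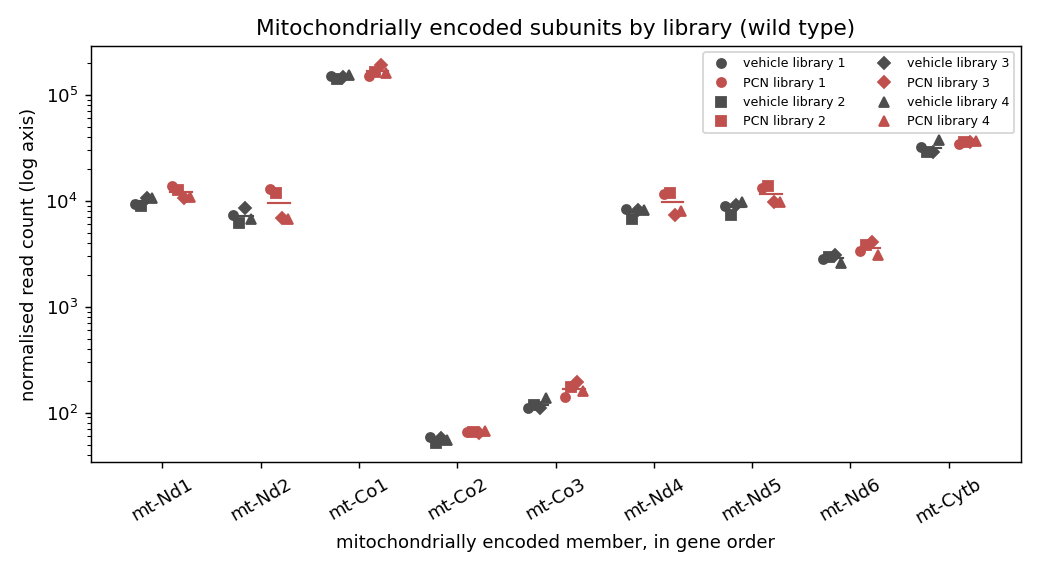
Normalised read count (log axis) of the 9 mitochondrially encoded members in each of the 4 vehicle and 4 PCN libraries, in gene order, with 1 symbol per library number and a line at each group mean. PCN libraries 1 and 2 stand above the other libraries for mt-Nd1, mt-Nd2, mt-Nd4 and mt-Nd5 (12901 and 11729 against at most 8625 for mt-Nd2), while mt-Co1 is highest in PCN library 3 at 191568.

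The nuclear members were close to level between the groups. Their fitted log2 changes ran from -0.16 to 0.28 with a median of 0.03, 38 above 0 and 30 below, and 52 of the 68 were within 0.1 of 0, against 4037 of all 12938 genes tested. Their median standard error was 0.09, smaller than the 0.14 over all genes. By complex the median was 0.03 for the 38 of complex I, 0.06 for the 3 of complex II, 0.02 for the 5 of complex III, -0.03 for the 9 of complex IV and 0.03 for the 13 of complex V. All 3 members of complex II, 4 of 5 of complex III and all 13 of complex V were within 0.1 of 0. The 5 assembly factors had a median of 0.14, from -0.15 for Ndufaf1 to 0.26 for Ndufaf4.

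Of the nuclear members only Cox6c, a small structural subunit of complex IV, did not overlap between the groups, where 5.63% of all genes were higher without overlap and 5.91% lower. Cox6c had normalised counts of 500.1, 522.5, 511.9 and 525.9 in vehicle and 588.6, 575.8, 626.7 and 607.6 with PCN. Its log2 change was 0.22 ± 0.07, which is 1.17-fold, with an edgeR adjusted p of 0.104. Leaving out each library in turn kept the Cox6c value between 0.20 and 0.24, a narrower range than for the other large values given below. The other 8 complex IV members ranged from -0.11 for Cox5a, with 6 of the 9 below 0.

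The other 4 of the 5 largest positive values were all in complex I. Ndufa5, an accessory subunit of its matrix arm, had 66.75, 78.67, 64.45 and 91.14 in vehicle and 88.21, 88.48, 77.39 and 113.1 with PCN (0.28 ± 0.17, adjusted p = 0.41). Ndufa13, an accessory subunit also known as GRIM-19, had 148.8, 144, 123.4 and 173.3 in vehicle and 178.9, 163.4, 214 and 160.6 with PCN (0.27 ± 0.13, adjusted p = 0.322). The groups overlapped for both. Ndufaf4, an assembly factor that acts early in building complex I, had 273.6, 307.8, 292.8 and 356.3 in vehicle and 333.9, 351.2, 393 and 396.5 with PCN (0.26 ± 0.10, adjusted p = 0.205). Its partner in assembly, Ndufaf3, had 96.3, 112.8, 84.71 and 96.37 against 106.3, 122.5, 115.3 and 113.1 (0.21 ± 0.13, adjusted p = 0.425). For both factors 1 library of a group reached into the range of the other. Without PCN library 4 the value of Ndufa5 was 0.16, and without PCN library 3 that of Ndufa13 was 0.18.

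The 5 largest negative values reached -0.16 at most and all overlapped between groups. Ndufb9, an accessory subunit of the membrane arm, had 309.7, 347.3, 335.1 and 376.5 in vehicle and 264.6, 281.8, 330.8 and 343.7 with PCN (-0.16 ± 0.11, adjusted p = 0.441). The assembly factor Ndufaf1 had 287.8, 303.8, 292.8 and 345.1 against 260.5, 246.4, 323.2 and 281.9 (-0.15 ± 0.10, adjusted p = 0.484). The lowest values of both were in PCN libraries 1 and 2. Ndufa3, another accessory subunit, had 374.3, 452.2, 476.9 and 446.7 against 383.3, 407, 405.2 and 416.1 (-0.11 ± 0.09, adjusted p = 0.527). Cox5a, a subunit of complex IV on the matrix side, had 1146, 1244, 1096 and 1142 against 1054, 955.6, 1126 and 1151 (-0.11 ± 0.08, adjusted p = 0.498). Here PCN library 2 was the lowest of the 8. Ndufa11, an accessory membrane subunit, had 246.2, 305.8, 232 and 354.1 against 269.6, 216.4, 264.1 and 319.6 (-0.09 ± 0.15, adjusted p = 0.744), and its sign changed without vehicle library 4. Leaving out 1 library moved each of these 5 by over 1.5 times, with ranges of -0.23 to -0.10 for Ndufb9, -0.22 to -0.08 for Ndufaf1, -0.18 to -0.07 for Ndufa3, -0.14 to -0.06 for Cox5a and -0.19 to 0.03 for Ndufa11.

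Per kilobase of annotated exon, averaged over both groups, the level of 67 nuclear members with an annotated length ran from 16.5 for Ndufb2 to 3172 for Atp5a1. The median was 388. The length joins the exons of all annotated transcripts of a gene, used in liver or not, so ranks and medians depend on the annotation. Ndufb2, at 5628 bases, had a mean count of 92.77, above the 69.7 of Ndufaf8 at 834 bases. The lowest of the 7 mitochondrially encoded members without a nuclear copy past the limits of identity and length given above was at 5593. The median level was 248 in complex I, 653 in complex II, 873 in complex III, 852 in complex IV and 502 in complex V. The highest in each complex were Ndufa4 (named for complex I and since placed in complex IV) at 828, the succinate-oxidising flavoprotein Sdha at 1242, the Rieske iron-sulphur protein Uqcrfs1 at 1356, the small subunit Cox8a at 2226 and the ATP synthase alpha subunit Atp5a1 at 3172.

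None of these 5 abundant subunits passed the test, with adjusted p values of at least 0.66 in edgeR. Ndufa4 had normalised counts of 1059, 1171, 1164 and 1308 in vehicle and 1066, 947.4, 1209 and 1218 with PCN, and Sdha had 4568, 5282, 5027 and 5209 against 4993, 4803, 5577 and 5519. Uqcrfs1 had 1834, 2003, 1836 and 1918 against 1786, 1542, 1888 and 1979, and Cox8a had 1325, 1432, 1377 and 1449 against 1342, 1274, 1375 and 1449. In each of them PCN library 2 was the lowest or among the lowest of the 8. Atp5a1 had 9686, 10279, 9290 and 10167 against 8955, 8556, 11501 and 11118, so that its PCN libraries stood on both sides of the vehicle range.

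**Figure D3:**
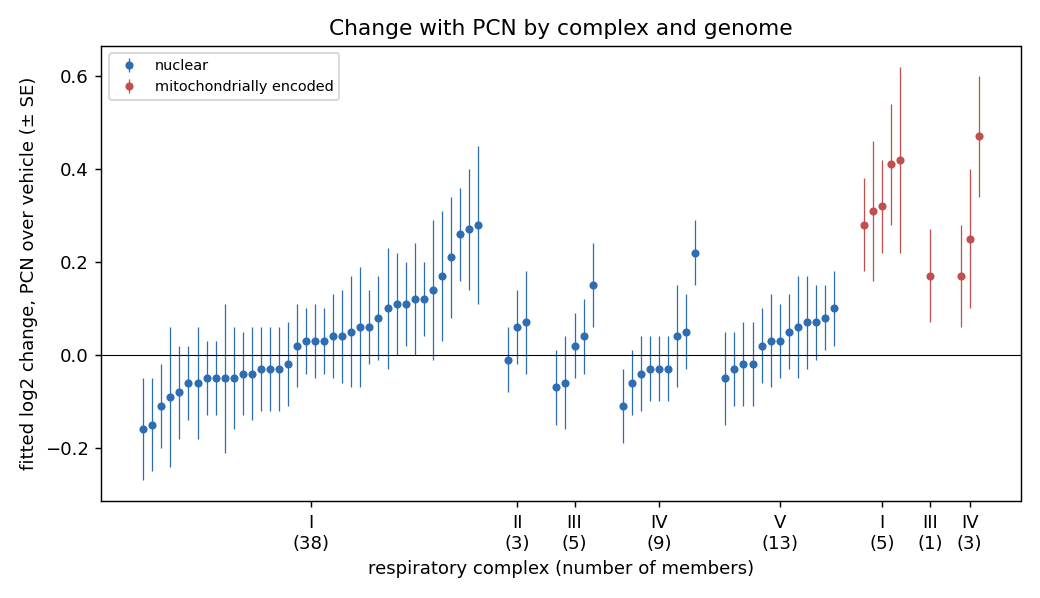
Fitted log2 change with PCN over vehicle (edgeR, bars are standard errors) of the 68 nuclear and 9 mitochondrially encoded members, sorted within each complex. The nuclear members spread around 0 between -0.16 and 0.28, and the 9 mitochondrially encoded members lie between 0.17 and 0.47.

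As a share of all counts of a library, the 9 mitochondrially encoded members took 1.754% ± 0.0702 in vehicle and 2.041% ± 0.12 with PCN (SD, n = 4 each). The vehicle libraries ranged from 1.657% to 1.819% and the PCN libraries from 1.901% to 2.151%, without overlap. Without mt-Co1, which held most of these counts, the shares were 0.5542% ± 0.0389 and 0.6763% ± 0.0809, again without overlap. The 68 nuclear members together took 0.56% ± 0.0175 in vehicle and 0.572% ± 0.041 with PCN, with ranges of 0.5439% to 0.5792% and 0.5332% to 0.6132% that overlapped.

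Within the PCN group the nuclear and mitochondrially encoded members did not vary in step. Relative to the vehicle mean, the median log2 deviation of the 68 nuclear members was -0.05 in PCN library 1, -0.09 in library 2, 0.09 in library 3 and 0.13 in library 4. In library 2 only 11 of the 68 stood above their vehicle mean, whereas 57 did in library 4. The mitochondrially encoded members had medians of 0.24, 0.41, 0.19 and 0.14 in the same order, so that the library with the lowest nuclear median had the highest mitochondrial one. By share of all counts the order was another. Mitochondrially encoded members took 1.981%, 2.131%, 2.151% and 1.901% in PCN libraries 1 to 4, highest in library 3. Without mt-Co1 they took 0.7363%, 0.7556%, 0.6042% and 0.609%, highest in library 2. The labels number the animals of each wild-type group as a lower and a higher pair, and whether libraries 1 and 2 are such a pair is not known, so the part of the pairs was not tested. Vehicle libraries varied less, from -0.06 to 0.06 for nuclear and from -0.13 to 0.07 for mitochondrially encoded members. Over all genes tested the medians lay between -0.00 and 0.01 in every library. Kupffer cell markers (8 of 8 listed, none at 0) were also higher in PCN libraries 1 and 2 than in libraries 3 and 4. Their summed normalised counts were 2585 and 3142 against 1433 and 1786. In vehicle libraries 1 to 4 they were 4273, 2393, 3217 and 2361, where the mitochondrial medians were 0.03, -0.13, 0.05 and 0.07. Stellate cell markers (6 of 6 listed, none at 0) summed to 3517, 4345, 2762 and 4093 in the 4 PCN libraries and to 2753 to 3342 in vehicle. The part of these cell types in the values of the members was not tested.

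**Figure D4:**
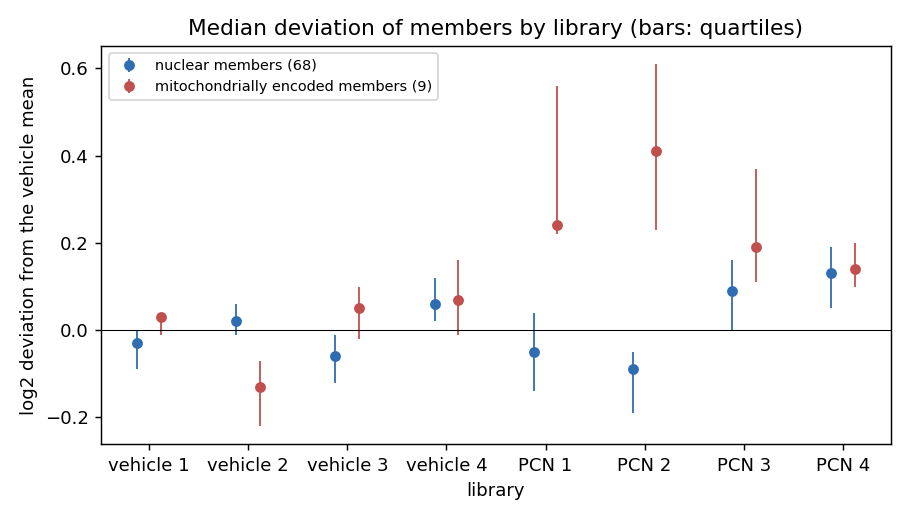
Median log2 deviation from the vehicle mean of the 68 nuclear and 9 mitochondrially encoded members in each library, with bars from the lower to the upper quartile over members. The nuclear medians stay between -0.09 and 0.13, and the mitochondrial medians of the 4 PCN libraries lie between 0.14 and 0.41.

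Genes that act around the chain gave few calls with PCN in edgeR, where 3.55% of all genes were called (1.91% higher and 1.64% lower), so that 1 call on the longest list is near the background. Of 11 tested nuclear regulators of respiratory genes, 1 rose and none fell: Ppargc1b, a coactivator of mitochondrial genes, went from 161, 252, 179 and 217 normalised counts in vehicle to 464, 516, 300 and 429 with PCN (2.09-fold, adjusted p = 0.0067). Of 13 tested genes of mitochondrial RNA stability and processing, 1 rose and none fell, the RNA-binding protein gene Fastkd1 (1.34-fold, adjusted p = 0.0281). Of 14 electron carrier and coenzyme Q genes, Coq10b, whose product binds coenzyme Q, rose 1.87-fold (adjusted p = 9.9e-04) and none fell. Of 34 assembly factors outside the name rule, Sco2, a copper chaperone for complex IV, fell 1.79-fold (adjusted p = 0.00776) and none rose. The 14 tested genes of mitochondrial transcription and genome maintenance held 0 calls in edgeR, 1 gene at an unadjusted p under 0.05 and 1 call in DESeq2 (Polg2, the accessory subunit of the mitochondrial DNA polymerase). The 5 tested genes of nucleotide and proton carriers held 0 calls in either tool and 1 gene at an unadjusted p under 0.05. The medians of the 6 lists lay between -0.05 and 0.07.

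The tables of the other comparisons list only genes selected on their own result, so a member that is missing there was not analysed. The authors' deposited tables at 0.05 hold no member for pravastatin in wild type (0.191% of all genes called), for atorvastatin in wild type (9.57%), for atorvastatin in PXR knockout (0.105%) or for knockout against wild type under vehicle (2.08%). Their table of knockout against wild type under atorvastatin holds 3 members, beside 9.35% of all genes. Values below are normalised counts on the scale of the table they come from, and groups shared between tables do not give independent comparisons.

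Under atorvastatin Cox7b and Ndufs7 were higher in PXR knockout than in wild type. Cox7b, a small subunit of complex IV, had 906.2, 969.4, 842.5 and 909 in wild type and 1173, 1101, 1076 and 1054 in knockout. The groups did not overlap (906.8 ± 51.8 and 1101 ± 51.7, SD, n = 4 each, 1.21-fold), and the authors' deposited table gives an adjusted p of 0.00918. Ndufs7, the subunit of complex I that carries its last iron-sulphur cluster before coenzyme Q, had 538.8, 554.2, 519.2 and 503.8 in wild type and 700.1, 611.9, 609.6 and 639.5 in knockout. Its groups did not overlap either (529 ± 22.1 and 640.3 ± 42.2, 1.21-fold), and the authors' deposited table puts Ndufs7 at 0.0263 after adjustment. With PCN in wild type the same genes had log2 changes of 0.04 ± 0.11 and 0.08 ± 0.09, from 1008, 900.5, 972.3 and 1210 in vehicle and 950.5, 931.1, 1047 and 1260 with PCN for Cox7b, and from 593.1, 566.5, 493.5 and 594.6 and 535, 641.2, 541.8 and 658.8 for Ndufs7.

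mt-Nd6 was lower in knockout than in wild type under atorvastatin. It had 2492, 2957, 3364 and 3824 in wild type and 2314, 2714, 2279 and 2065 in knockout, so that the lowest wild-type library lay inside the knockout range (3159 ± 568 and 2343 ± 271, 0.742-fold). The authors' deposited table puts mt-Nd6 at 0.0231 after adjustment. Of the 9 mitochondrially encoded members only mt-Nd6 is in that table.

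mt-Co3 is listed in several tables. Under vehicle it had 117.8, 124.9, 116.6 and 143.7 in wild type and 249.1, 236.7, 144.6 and 156.1 in knockout. The highest wild-type and lowest knockout library nearly met, and its value of 0.0541 after adjustment, from the authors' deposited table, passed only their threshold of 0.1 (2.87% of all genes called). With pravastatin it had 150.2, 159.1, 148.4 and 183.2 in vehicle and 310.4, 212.7, 182.7 and 159 in treated mice, where 1 library was far above the others (authors' deposited adjusted p = 0.884). Both comparisons and that of PCN use the same vehicle libraries. The limit on telling mt-Co3 from its chromosome 1 copy holds in each.

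Complex I genes made up the rest of the listings. Ndufaf4 had 306, 344.8, 328.4 and 399.7 in vehicle and 434.3, 380.1, 460.9 and 421.5 with atorvastatin in wild type (1.23-fold, overlapping by 1 library), and the authors' deposited table at 0.1 gives it 0.0916 after adjustment, where 11.9% of all genes are called. Ndufa13 had 200.2, 193.8, 165.7 and 233.5 in vehicle and 244.6, 241.7, 241.7 and 245.5 with pravastatin, without overlap and with an authors' deposited adjusted p of 0.791. In PXR knockout, Ndufb4 had 456, 407.3, 444.4 and 366.7 in vehicle and 354.8, 344, 358.2 and 367.4 with atorvastatin, and Ndufb8 had 386.3, 454.6, 437.1 and 415.3 against 325.3, 348.3, 357.4 and 393.6. The authors' deposited table puts them at 0.97 and 0.927 after adjustment.

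**Figure D5:**
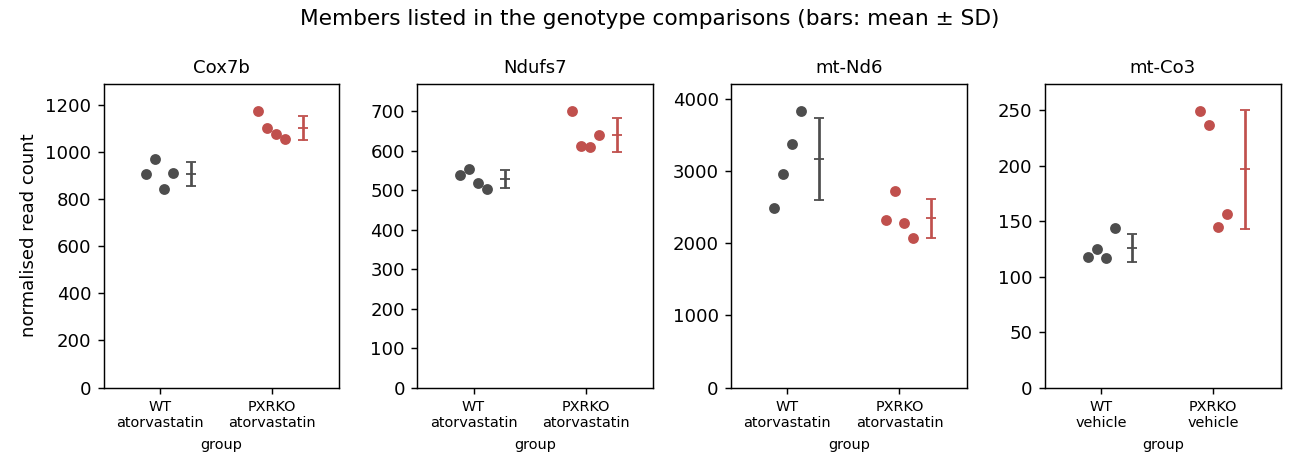
Normalised read count in each library of Cox7b, Ndufs7 and mt-Nd6 (wild type and PXR knockout under atorvastatin) and of mt-Co3 (wild type and PXR knockout under vehicle), each on the scale of its own table, with bars for the mean ± SD of 4 libraries. Cox7b and Ndufs7 lie above the wild-type range in all 4 knockout libraries, and mt-Nd6 overlaps between 2492 (lowest wild-type library) and 2714 (highest knockout library).

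Around the chain, the 6 lists together hold 107 genes, and the share called in the authors' deposited tables at 0.05 stood near that of all genes in the comparisons with most calls. With atorvastatin in wild type, 5 of the 107 were called higher and 4 lower (8.41% beside 9.57% of all genes). In knockout against wild type under atorvastatin, 7 were called higher and 3 lower (9.35% beside 9.35%). With PCN the same tables called 4 higher and 1 lower (4.67% beside 5.57%), and with pravastatin 1, lower (0.935% beside 0.191%). Atorvastatin in knockout and knockout against wild type under vehicle gave 0 calls, beside 0.105% and 2.08% of all genes. Each share of the lists is over all 107 genes, tested or not.

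With atorvastatin in wild type the authors' deposited table lists, among regulators, Ppargc1b (2.01-fold higher, adjusted p = 5.4e-09) and Ppara, a receptor that drives fatty acid oxidation (1.24-fold higher, 0.0155). Sco2 stood at 0.519 of vehicle (2.0e-10), and Taco1, which helps to translate mt-Co1, at 0.767 (0.0379) with overlapping groups. Of 17 electron carrier and coenzyme Q genes, Coq10b was 1.83-fold higher (1.9e-09), and Coq8a, a kinase-like protein needed for coenzyme Q synthesis, stood at 0.727 of vehicle (1.3e-13) and Etfdh, which passes electrons from fatty acid oxidation to coenzyme Q, at 0.774 (1.7e-04). Polg2 was 1.4-fold higher (0.0031) and Nnt, the proton-coupled transhydrogenase, 1.61-fold higher (0.00964), and none of the 17 genes of RNA stability and processing was listed. Coq8a was also the call with pravastatin, at 0.809 of vehicle (0.0146), and both comparisons use the same vehicle libraries.

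In knockout against wild type under atorvastatin, the authors' deposited table lists 5 of the 17 electron carrier and coenzyme Q genes, 4 higher (Coq3, Coq8a, Cycs and Etfdh) and 1 lower (Coq10b at 0.417 of wild type). Cycs, which encodes cytochrome c, was 1.39-fold higher there (adjusted p = 0.00427). Of 38 assembly factors 2 were higher, Sco2 (2.21-fold, 1.3e-06) and Timmdc1 (1.23-fold, 0.0352). Of 13 regulators 2 were lower, Nfe2l2 at 0.762 and Pprc1 at 0.733, and of 7 carriers 1 was higher, the phosphate carrier Slc25a3 (1.16-fold). Genes of the lists for mitochondrial transcription (15) and RNA stability (17) gave 0 calls. The comparison shares the wild-type atorvastatin libraries with that of atorvastatin and vehicle.

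The promoter windows of the nuclear members were searched for the letters of factors known as regulators of respiratory genes. RefSeq windows on GRCm38.p6, from 250 bases before to 50 after a gene's start, were found for 59 of the 68 by symbol. YY1 letters (GCCATNTT, both strands) were in 17 of the 59, which is 28.8%, against 10.7% of 7408 other genes with a mean count of at least 50 and 6.96% of all 27025 genes with a window. Letters of the NRF1 palindrome, which reads the same on both strands, were in 4 (Atp5g2, Cox6a1, Ndufa11 and Ndufaf4), 6.78% against 2.43% and 1.07%. Letters of the ETS family, to which GABP belongs (CCGGAAG, both strands), were in 15, 25.4% against 21.2% and 9.93%, and those of ERR (TNAAGGTCA, both strands) in 2 (Atp5g3 and Ndufb4), 3.39% against 0.958% and 1.43%. There were 3 members with both YY1 and ETS letters. These shares are matches of letters and not binding sites.

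As examples, the windows of Cox7b and Ndufs7, among the 17 members with YY1 letters, and of Ndufaf4, among the 4 with NRF1 letters, are printed. Capitals mark the matching letters. The part of these letters in the counts of any member was not tested. The windows are those of Cox7b (chrX:106015450-106015749, plus strand), Ndufs7 (chr10:80249199-80249498, plus strand) and Ndufaf4 (chr4:24897833-24898132, plus strand).
Cox7b: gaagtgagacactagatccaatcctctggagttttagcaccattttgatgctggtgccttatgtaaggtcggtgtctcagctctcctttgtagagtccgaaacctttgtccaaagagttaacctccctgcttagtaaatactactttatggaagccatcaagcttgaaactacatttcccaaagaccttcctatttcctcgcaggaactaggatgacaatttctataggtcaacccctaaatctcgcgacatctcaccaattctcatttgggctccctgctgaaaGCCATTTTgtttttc
Ndufs7: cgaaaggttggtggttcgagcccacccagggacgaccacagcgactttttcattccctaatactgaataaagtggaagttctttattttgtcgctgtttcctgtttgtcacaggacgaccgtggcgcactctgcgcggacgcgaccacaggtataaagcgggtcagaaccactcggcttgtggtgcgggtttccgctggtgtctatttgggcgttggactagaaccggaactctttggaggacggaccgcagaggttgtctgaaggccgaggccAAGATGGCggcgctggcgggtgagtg
Ndufaf4: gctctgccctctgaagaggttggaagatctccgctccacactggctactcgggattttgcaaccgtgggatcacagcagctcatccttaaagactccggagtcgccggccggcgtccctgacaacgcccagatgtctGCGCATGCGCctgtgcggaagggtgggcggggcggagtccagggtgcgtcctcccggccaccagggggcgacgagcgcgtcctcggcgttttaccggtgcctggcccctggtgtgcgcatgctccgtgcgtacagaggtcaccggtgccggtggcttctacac
In Cox7b the letters begin 35 bases after the start on the sense strand, and in Ndufs7 24 bases after it on the other strand. Over the 17 members, 9 of 18 matches began after the start and 4 of the 18 were on the sense strand.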

How the data were processed

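Liver total RNA was sequenced with a stranded total RNA kit, per the labels' protocols. Reads were counted per gene with HTSeq and tested with DESeq2 on GRCm38, per the submitters' processing notes. The aligner, annotation release and strand setting were not given in the sources used here. Whole numbers per gene are deposited as unnormalised counts, per the file headers, and 4.86% of all counts are in rows with coordinates but no symbol, which were kept. The deposited mean (baseMean) is a normalised signal, the authors' mean of counts over size factors. The deposited log2 fold changes, p-values and adjusted p-values are the authors'. Of 15 tables, 14 were used, with 0 per-sample columns unused.

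Size factors were recovered from baseMean and counts by least squares (error at most 0.0743%), and normalised counts are counts divided by them, comparable within a table only. PCN was compared with vehicle with edgeR 4.0.16 (TMM, filterByExpr, quasi-likelihood F test, Benjamini-Hochberg) in R 4.3.3, checked on simulated data, with DESeq2 1.42.0 as an alternative. SE is the absolute log2 change over the square root of F. p-values of treatment comparisons measure the spread between mice of 1 experiment. The deposited genotype p-values set groups of different experiments side by side and do not cover a difference between experiments. The deposited columns are tied to groups only. Genes were joined by symbol and coordinates, with starts raised by 1. Nuclear copies were found with BLAST+ 2.17.0, and the sequences come from GENCODE M21 and RefSeq. Alternatives were RLE scaling, no filter, mitochondrial genes left out of scaling, each library left out, other members or thresholds, and, chosen after seeing the data, the unlisted genes counted in the adjustment and members with near-identical copies left out.

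The members and lists were chosen with earlier results of these data known. Full values are given for all mitochondrially encoded members, the 5 largest rises and falls among nuclear members, the highest per kilobase in each complex, members in another table below 0.05 and those next to the limit of 50.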

Additional observations from a re-analysis of the deposited data

Results flagged for a closer look

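Of 76 groups of 4 libraries checked for a library far from the others, among the named members and shares, 1 was flagged, and chance flags about 1 in 20 groups. It was mt-Nd4 in wild-type vehicle, where library 2 had 6734 normalised counts and the other 3 had 8162 to 8275, a gap of 0.927 of the group's range. The same library had the lowest vehicle value of mt-Nd1, mt-Nd2, mt-Nd5, mt-Co1 and mt-Co2, and it was the deepest of the 8 at 24.6 M counts. The part of depth was not tested.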

How the results depend on the processing

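No nuclear member was called under any alternative run, and at most 1 mitochondrially encoded member was: mt-Nd6 with DESeq2 (1 called, adjusted p = 0.0488) and mt-Co3 without PCN library 1 (count of calls 0 to 1 over the 8 settings that leave out a library). The median log2 change of the mitochondrially encoded members was 0.24 to 0.39, and that of the nuclear members -0.01 to 0.05, over the same 8. Of the named members, signs changed without 1 library for Ndufa11 (0.03, range -0.19 to 0.03), Cox7b (-0.02 and -0.06, range -0.06 to 0.13) and Atp5a1 (-0.04 and -0.02), none of which was called. Across the tables of the other 4 comparisons with both thresholds, the authors' threshold of 0.1 moved the count of members from 0 to 2 (Ndufaf4 and mt-Co3). DESeq2 moved the calls on the list of mitochondrial transcription and genome maintenance from 0 to 1 (Polg2). Over all genes DESeq2 called 746 against 459 in edgeR, and leaving out a library gave 223 (without PCN library 2) to 480; counting the unlisted genes gave 418. No paired analysis was possible because the groups share no replicate numbers and the columns are tied to groups only.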

Other observations

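Genes with a matching symbol that are not members also stood in the authors' deposited tables at 0.05. Ndufs5-ps is a processed pseudogene of a complex I subunit that the annotation places inside Zbtb20 on the same strand. It had normalised counts of 13.46, 8.868, 6.196 and 13.41 in wild-type vehicle and 35.93, 25.98, 33.28 and 26 with atorvastatin. Its group means differed 2.89-fold, while the authors' deposited log2 change was smaller, at 0.93, with an adjusted p of 6.2e-04. In the table of knockout against wild type under atorvastatin it had 31.06, 22.47, 28.84 and 22.51 in wild type and 12.26, 7.649, 17.17 and 4.642 in knockout (authors' deposited adjusted p = 0.0232). The wild-type atorvastatin libraries are the same in both, and reads of Ndufs5-ps cannot be told apart from Zbtb20 RNA that spans it. With PCN it had 12.04, 7.917, 5.524 and 11.95 in vehicle and 21.43, 23.14, 24.28 and 12.81 in treated mice, while its parent gene Ndufs5 had a log2 change of 0.11 ± 0.11 in edgeR.

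Ndufa2, an accessory subunit of complex I, had 326.1, 352, 363.6 and 430.6 in wild type and 265.6, 269.2, 311.7 and 272.7 in knockout under atorvastatin, without overlap and lower where Cox7b and Ndufs7 were higher (authors' deposited adjusted p = 0.0238). With atorvastatin in knockout it had 305.7, 336.3, 319 and 342.9 in vehicle and 249.7, 253.3, 294.2 and 256.9 in treated mice, also without overlap (authors' deposited adjusted p = 0.723). Both comparisons use the same knockout atorvastatin libraries.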
